A study of Sus scrofa with 2 samples.

Results

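In single nuclei of pig renal cortex, RNA was examined for 6 genes of the thick ascending limb (TAL) of the loop of Henle, selected by their symbols in the deposited annotation. These were SLC12A1, CLDN10, CLDN16, CASR, UMOD and EGF, 6 of 31908 genes in the files, each with 1 row. The study compared cortex taken before perfusion (0 h, unperfused) with cortex taken 2 h after the start of normothermic ex vivo machine perfusion (perfused), a condition set up to raise glomerular pressure and filtration. The kidneys (Sus scrofa, from a slaughterhouse, stored cold before perfusion) had no genetic alteration named in the labels or methods. Strain, age and the number of animals behind each library are not given there, nor whether both pieces of cortex came from the same animal. An isolated perfused kidney has no circulation from the rest of the body, and time, temperature and pressure differed together between the conditions.

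Each condition had 1 library, so no difference has a replicate check and no test across kidneys was possible. The unperfused library held 34415254 unique molecular identifiers (UMIs, each marking 1 RNA molecule) in 7179 barcodes, and the perfused library held 35525592 in 6205 barcodes. After filters on genes and mitochondrial UMIs and removal of called doublets (641 and 489), 6389 unperfused and 5421 perfused nuclei remained, with medians of 3755 and 4383 UMIs. Both libraries shared 14 barcode sequences, 8 of them among the nuclei kept. Levels are given as CPM, the UMIs of a gene per 1000000 UMIs of the same nuclei, and the conditions are compared as log2 of perfused over unperfused CPM. Intervals are exact 95% ones, which cover no error other than that of counting. Nuclear counts include introns and scale with gene length, so levels are compared between nuclei and not between genes.

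The TAL reabsorbs sodium chloride without water. Its apical cotransporter NKCC2, encoded by SLC12A1, works with potassium recycling to make the lumen positive, and this voltage drives sodium, calcium and magnesium between the cells through tight junctions whose selectivity is set by claudins. The calcium-sensing receptor CASR on the blood side lowers this divalent ion transport when calcium is high. TAL cells also secrete uromodulin (UMOD), the most abundant protein of normal urine, and distal nephron cells make the precursor of epidermal growth factor (EGF), a membrane protein whose released form is linked to magnesium handling and tubule repair.

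TAL nuclei were found without these 6 genes, which were left out of the variable genes used for clustering and out of every marker list. The 11810 nuclei formed 20 clusters, and 2 of them were named TAL from a list of 14 other genes. Cluster 2 held 643 unperfused and 734 perfused nuclei. Cluster 15 held 104 and 71 and was led by SCN9A, HS6ST3, SORCS3 and CLDN16. Of the 14 TAL markers, 12 had a higher CPM in these nuclei than in all others, among them ENOX1 at 6268 against 429 CPM, PTGER3 at 1893 against 188 CPM and KCNJ1 at 130.1 against 11.05 CPM. NELL1 and TMEM52B were not higher. TAL nuclei made up 11.7% of unperfused nuclei (747 nuclei, interval 10.9 to 12.5) and 14.8% of perfused nuclei (805 nuclei, 13.9 to 15.8). Their median depth was 4154 and 5754 UMIs. A larger share of nuclei of a type in 1 piece of cortex and a change in the tissue cannot be told apart here.

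SLC12A1, the salt cotransporter, was concentrated in TAL nuclei. Its level in TAL was 7865 CPM in the unperfused library (26061 UMIs) and 9115 CPM in the perfused library (45175 UMIs). At least 1 UMI was found in 744 of 747 unperfused TAL nuclei and in all 805 perfused ones. TAL nuclei held 91.9% and 93.8% of all SLC12A1 UMIs. The next class was cluster 17, unnamed and led by GALNT14 and EPHA7, at 639 and 520 CPM. The distal convoluted tubule (DCT), the segment after the TAL, had only 97.8 and 177 CPM. Proximal tubule (PT) nuclei had 58.9 and 46.7 CPM, and endothelial (EC) nuclei had 104 and 101 CPM.

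Free RNA from broken cells gives every droplet some UMIs of abundant genes, and deeper nuclei show more genes. Shares of nuclei were also compared at an equal depth of 1000 UMIs per nucleus. This evens out depth but does not remove free RNA. SLC12A1 was then found in 99.1% of unperfused and 99.8% of perfused TAL nuclei, against 5.94% and 6.03% of PT nuclei and 10.7% and 9.36% of EC nuclei. Thinning left out 5 unperfused and 4 perfused TAL nuclei. Median depths before thinning were 5297 and 6630 UMIs in PT and 1876 and 2211 in EC.

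UMOD was high in both TAL and DCT nuclei. Its level was 3055 CPM unperfused and 3960 CPM perfused in TAL, and 2464 and 2919 CPM in DCT. These 2 classes ranked first and second in each library, and their counting intervals did not overlap with each other or with the next class. After thinning to 1000 UMIs, UMOD was found in 86.3% and 92.8% of TAL nuclei and in 87.5% and 84.8% of DCT nuclei. UMOD and SLC12A1 were uncoupled in the DCT, with 25.2 UMOD UMIs per SLC12A1 UMI unperfused and 16.5 perfused, against 0.39 and 0.43 in TAL. The SLC12A1 UMIs of the DCT lay in few nuclei. The 5 richest held 54% of 150 UMIs unperfused and 78.4% of 204 UMIs perfused. For UMOD, the 5 richest DCT nuclei held 5.27% and 10.2% of its UMIs. The few nuclei rich in SLC12A1 therefore lower the DCT ratio, and its difference between the libraries depends on them. Other nuclei carried UMOD at a low level. In immune nuclei it reached 515 CPM unperfused and 726 CPM perfused, in 52.0% and 64.4% of nuclei as counted, with median depths of 1448 and 1676 UMIs. There the ratio of UMOD to SLC12A1 UMIs was 3.24 and 2.81. It was 2.18 and 2.24 in EC, 1.54 and 1.75 in PT and 0.49 and 0.40 in cluster 17. The PT genes LRP2 and CUBN were at 20.1% and 16.2% of their whole-library level in immune nuclei. In EC they were at 6.93% and 8.34%. Thinned shares of UMOD in EC were 20.2% and 20.5%, and in PT 9.16% and 9.01%. The part of free RNA in these low levels was not tested.

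EGF was shared by the DCT, the TAL and part of the PT. DCT nuclei had the highest level, 1659 CPM unperfused and 1622 CPM perfused, followed by TAL at 1402 and 1368 CPM, with no overlap of the intervals. At 1000 UMIs per nucleus it was found in 72.5% and 64.8% of DCT nuclei, 67.3% and 63.5% of TAL nuclei and 3.14% and 3.64% of EC nuclei. Within the PT the gene was uneven. Cluster 3, led by ADCY8, PGC and SLC22A2, had 983 and 974 CPM, whereas cluster 0, led by SLC7A8, STRA6 and SLC5A12, had 224 and 192 CPM. Cluster 11, unnamed and led by POU2F3 and SLC5A8, had 598 and 717 CPM.

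CASR and CLDN16 were close to restricted to the TAL. CASR had 300.3 and 317 CPM in TAL, which held 93.1% and 95.5% of its UMIs. Outside it, no class exceeded 16.2 CPM in the unperfused library or 26.1 CPM in the perfused library, the latter from 3 UMIs in cycling nuclei. CLDN16, a claudin of the pores for calcium and magnesium that is mutated in familial hypomagnesaemia, had 321 and 331 CPM in TAL and at most 17.1 and 19.9 CPM elsewhere. TAL held 94.8% and 94.5% of its UMIs. Both were sparse per nucleus: at 1000 UMIs, CASR was found in 23.9% and 21.1% of TAL nuclei and CLDN16 in 21.7% and 23.7%, while EC nuclei stood at 0.24% and 0.26% for CASR and 0.16% and 0.52% for CLDN16.

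CLDN10 had the opposite distribution, with its highest levels outside the TAL. It is known for a cation-selective form in the thick limb and an anion-selective form in the proximal tubule, which gene counts do not separate. Cluster 11 had 1778 CPM unperfused and 2095 CPM perfused, and PT nuclei had 1133 and 1438 CPM. TAL nuclei had 252 and 265 CPM and held only 6.04% and 7.74% of CLDN10 UMIs. Injured PT nuclei had 229 and 439 CPM. In the unperfused library the intervals of TAL and injured PT overlapped, and in the perfused library they did not. At 1000 UMIs, CLDN10 was found in 22.0% and 22.7% of TAL nuclei, 62.1% and 71.0% of PT nuclei and 3.30% and 2.60% of EC nuclei.

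**Figure D1:**
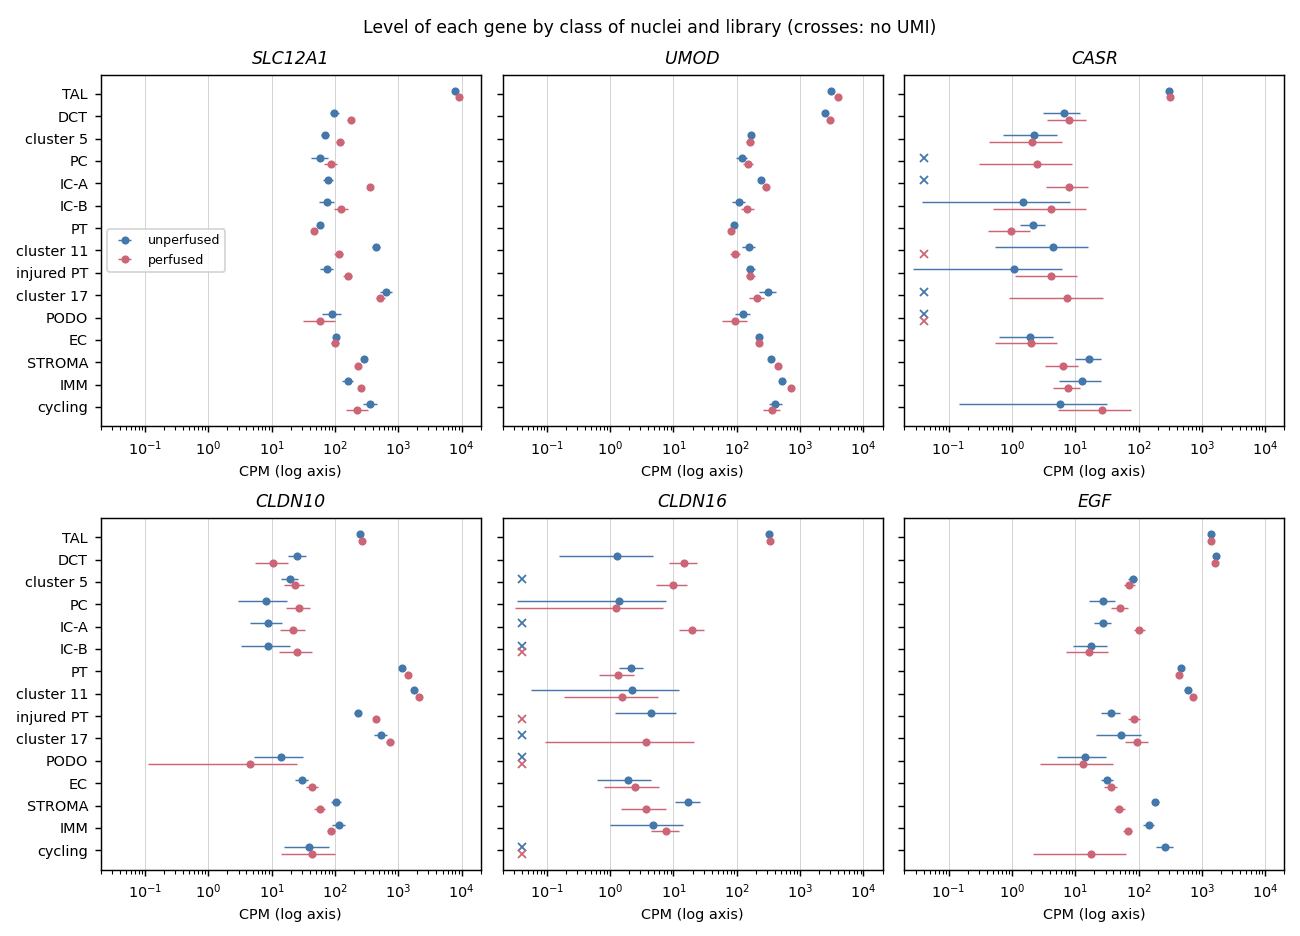
Level of each gene in the classes of nuclei, as CPM on a log axis, for the unperfused (blue) and perfused (red) library; bars are 95% counting intervals and crosses mark classes without a UMI. SLC12A1, CASR and CLDN16 stand out in TAL alone, UMOD in TAL and DCT, EGF in DCT, TAL, PT and cluster 11, and CLDN10 in cluster 11 and PT above TAL.

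Perfused and unperfused TAL nuclei were then compared. UMOD had the largest ratio of the 6 genes, 0.37 on the log2 scale (interval 0.34 to 0.41), and SLC12A1 followed at 0.21 (0.19 to 0.23). For the other 4 genes the interval included 0. The log2 ratio was 0.08 (-0.04 to 0.19) for CASR, 0.07 (-0.05 to 0.20) for CLDN10, 0.04 (-0.07 to 0.15) for CLDN16 and -0.04 (-0.09 to 0.02) for EGF. All 6 had at least 100 UMIs in TAL, and none of the 6 passed 1.5-fold (0.58 on the log2 scale) in either direction. Among 6965 genes with at least 100 UMIs in the TAL nuclei of 1 library or the other, 1.62% were past 1.5-fold higher and 4.71% past 1.5-fold lower in the perfused library. The ratio of UMOD lay above that of 94.1% of these genes, that of SLC12A1 above 82.7%, and that of EGF above 45.2%.

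The scaling of the libraries moved all ratios together. The median log2 ratio of the 6965 genes was -0.006 with CPM and 0.13 with factors by TMM, which puts EGF at 0.10 and so turns its direction, UMOD at 0.51 and SLC12A1 at 0.35. The place of each gene among the others does not depend on this choice. Marker lists of other segments, summed over TAL nuclei, moved in both directions. The 10 PT markers summed to 1133 CPM in unperfused and 623 CPM in perfused TAL nuclei, with 9 of 10 lower, and 7 principal cell markers summed to 59.5 and 15.1 CPM, with all 7 lower. The CNT list had 87.2 and 57.7 CPM and the IC-A list 31.1 and 13.7 CPM, while the DCT list had 1139 and 1095 CPM, the IC-B list 47.1 and 52.3 CPM and the thin limb list 193.8 and 200.8 CPM, with 4 of its 7 genes higher. Their part in the ratios of the 6 genes was not tested. The levels of LRP2 and CUBN in TAL were 4.95% and 4.40% of those in the whole library. Subtracting a free RNA profile scaled to that level changed no ratio beyond its counting interval.

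The ratios of UMOD and SLC12A1 did not rest on a few nuclei. Per nucleus, UMOD UMIs per 10000 UMIs had quartiles of 17.8, 30.4 and 44.5 unperfused and 26.6, 39.97 and 53.6 perfused. SLC12A1 had quartiles of 55.4, 79.0 and 103.7 unperfused and 66.3, 89.3 and 115 perfused. The richest nucleus held at most 0.57% of the UMIs of either gene in either library. The 2 distributions overlapped widely. EGF quartiles were 5.35, 11.4 and 19.5 unperfused and 4.94, 10.4 and 18.2 perfused. At least 1 UMI of CASR was seen in 56.2% and 62.5% of TAL nuclei as counted, but in 23.9% and 21.1% at equal depth, and CLDN10 went from 47.5% and 59.0% as counted to 22.0% and 22.7%.

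The 2 TAL clusters differed in these ratios. In cluster 15, UMOD went from 1138 to 1845 CPM with perfusion, a log2 ratio of 0.70 (0.56 to 0.84), and in cluster 2 it had 3471 and 4228 CPM, a ratio of 0.28 (0.25 to 0.32). UMOD in cluster 15 was past 1.5-fold higher, as were 3.26% of the 1259 genes with at least 100 UMIs there, while 3.65% were past 1.5-fold lower. In cluster 2, where none of the 6 genes passed it, 1.43% were past it upward and 4.17% downward. CLDN16 had 531 and 774 CPM in cluster 15, a ratio of 0.55 (0.33 to 0.76), and 276 and 275 CPM in cluster 2, a ratio of -0.01 (-0.14 to 0.13). EGF had 1085 and 1436 CPM in cluster 15, a ratio of 0.40 (0.25 to 0.56), and 1471 and 1360 CPM in cluster 2, a ratio of -0.11 (-0.17 to -0.06). SLC12A1 had similar ratios in both, 0.19 (0.11 to 0.26) and 0.17 (0.14 to 0.19). CLDN10 was almost absent from cluster 15, with 9 UMIs (15.3 CPM) unperfused and 14 UMIs (25.2 CPM) perfused, against 303 and 296 CPM in cluster 2. Its ratio in cluster 15 was 0.72, also past 1.5-fold, but these few UMIs leave an interval of -0.59 to 2.11.

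The make-up of cluster 15 differed between the libraries. When TAL nuclei were clustered on their own, most of its nuclei fell into subclusters 4 and 5, with 49 unperfused and 39 perfused nuclei of cluster 15 in subcluster 4 and 51 and 23 in subcluster 5. Within cluster 15, the nuclei of subcluster 5 were poor in UMOD, at 491 and 548 CPM, and in EGF, at 431 and 407 CPM, against 1804 and 2315 CPM of UMOD and 1688 and 1894 CPM of EGF in those of subcluster 4. The UMOD ratio was 0.36 (0.19 to 0.53) in the nuclei of subcluster 4 and 0.16 (-0.24 to 0.55) in those of subcluster 5, and neither value was past 1.5-fold. The EGF ratio was 0.17 (-0.02 to 0.35) and -0.08 (-0.53 to 0.36), with both intervals including 0. The CLDN16 ratio was 0.35 (0.13 to 0.57) in subcluster 4 and 0.68 (-0.51 to 1.85) in subcluster 5, where it had 15 and 13 UMIs. The higher UMOD and EGF of cluster 15 as a whole went with a smaller share of subcluster 5 in the perfused library.

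Summed over all nuclei, the ratios were larger than within TAL nuclei for each of the 6 genes, and TAL nuclei were more numerous and deeper in the perfused library. The ratios were 0.74 for SLC12A1, 0.65 for UMOD, 0.60 for both CASR and CLDN16, 0.27 for CLDN10 and 0.07 for EGF. In the DCT, UMOD had a ratio of 0.24 (0.18 to 0.31) and EGF of -0.03 (-0.12 to 0.05). Neither passed 1.5-fold, which 1.71% of 3273 genes there passed upward and 4.8% downward. CLDN10 had a ratio of 0.34 (0.31 to 0.38) in PT nuclei, 0.26 (0.21 to 0.31) in cluster 0 and 0.47 (0.41 to 0.52) in cluster 3. In PT nuclei 0.971% of 8854 genes were past 1.5-fold higher and 8.44% lower. Cluster 11 had ratios of 0.24 (0.12 to 0.35) for CLDN10 and 0.26 (0.07 to 0.46) for EGF, and there 4.64% of 2693 genes were past 1.5-fold higher and 2.27% lower. In injured PT nuclei CLDN10 had a ratio of 0.94 (0.70 to 1.18), past 1.5-fold as were 4.74% of 2449 genes there, with 4.41% past it downward. That class joined 2 clusters of unlike CLDN10 level, cluster 13 with 356 and 580 CPM and cluster 14 with 33.2 and 35.8 CPM. Cluster 13 made up 125 of 271 unperfused and 112 of 193 perfused nuclei. Its own CLDN10 ratio was 0.70 (0.46 to 0.96), and that of cluster 14 was 0.11 (-1.32 to 1.48).

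**Figure D2:**
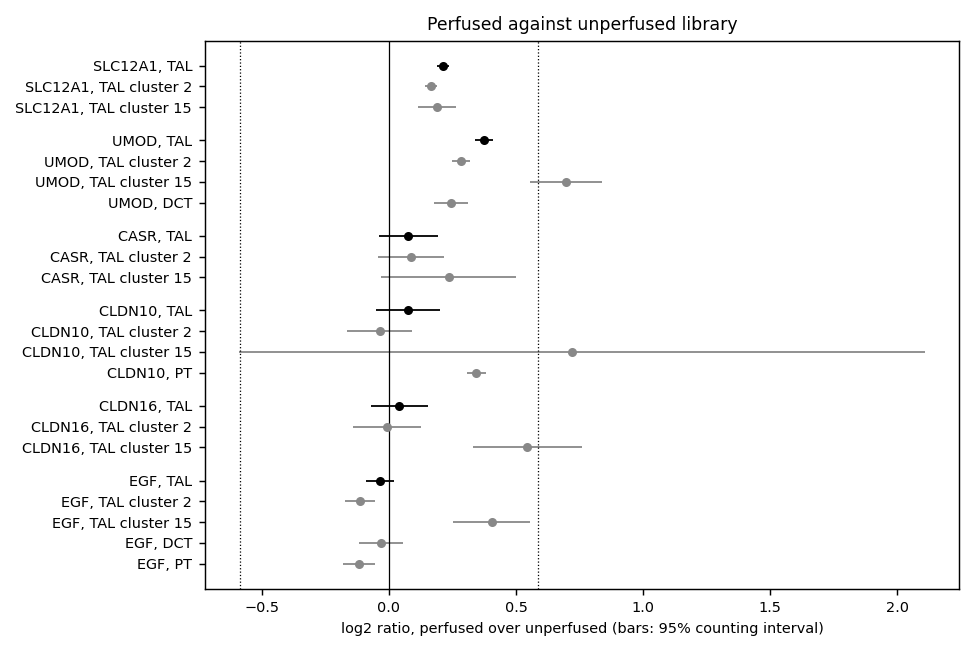
Log2 ratio of perfused over unperfused CPM for each gene in all TAL nuclei (black) and in single TAL clusters, DCT or PT (grey); bars are 95% counting intervals and dotted lines mark 1.5-fold. In TAL the intervals of SLC12A1 and UMOD lie above 0 and those of the other 4 genes include it, and EGF lies on opposite sides of 0 in clusters 2 and 15. Within cluster 15 its intervals include 0 in the nuclei of subclusters 4 and 5, whose shares differ between the libraries.

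TAL nuclei were clustered again, also without the 6 genes among the variable genes, and gave 8 subclusters, numbered 0 to 7. No subcluster could be named from the marker lists, and levels across them are a description. Subcluster 0 (201 unperfused and 313 perfused nuclei) was led by HS3ST5, FGF1 and PTPRE, subcluster 1 (157 and 155) by PAPPA2 and SCTR among genes with a symbol, and subcluster 2 (134 and 141) by COL24A1 and SEMA5B, with KCNJ10 also in its leading genes. Subcluster 3 (80 and 101) was led by genes that include immune and stromal ones such as ARHGAP15 and RUNX1. Subclusters 4 (78 and 44) and 5 (52 and 23) held most of cluster 15, with SV2C and ADGRB3 leading the former and SLC4A4, SCN9A and LHX1 the latter. Subcluster 6 (33 and 16) was led by SPP1, MEST and NOS1, and subcluster 7 (12 and 12) held few, deep nuclei with genes of other segments such as CDH6 and AGMO.

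CLDN10 and CLDN16 ran in opposite directions through subclusters 1 to 4. CLDN10 was at 389 CPM unperfused and 356 CPM perfused in subcluster 0, at 495 and 504 CPM in subcluster 1 and at 793 and 890.4 CPM in subcluster 6. It was at 95.2 and 78.6 CPM in subcluster 2, 44.2 and 61.7 CPM in subcluster 3 and 15.9 and 42.6 CPM in subcluster 4. CLDN16 was low in subclusters 0, 1 and 6, which were rich in CLDN10, with 59.8 and 84.3 CPM in subcluster 0, 163 and 171 CPM in subcluster 1 and 39.7 and 0 CPM in subcluster 6, where it had 4 UMIs in 33 unperfused and none in 16 perfused nuclei. It was at 388 and 465 CPM in subcluster 2, 607 and 666 CPM in subcluster 3 and 1079 and 1332 CPM in subcluster 4. Subcluster 5 had little of either claudin, 16.6 and 24.6 CPM of CLDN10 and 49.8 and 80.1 CPM of CLDN16. Subcluster 7, with 12 nuclei in each library, had 428 and 239 CPM of CLDN10 and 113 and 115 CPM of CLDN16. The order of these levels was the same in both libraries for subclusters 0 to 4 in CLDN16.

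The receptor and the secreted products followed other patterns. CASR was higher in subclusters 2 to 4, at 386 and 425 CPM, 330.2 and 424 CPM, and 538 and 569 CPM, than in subcluster 0, at 187 and 203 CPM, or subcluster 1, at 244 and 264 CPM. In subcluster 6 it had 288 CPM unperfused (29 UMIs) and 693 CPM perfused (35 UMIs). UMOD was highest in subcluster 0, at 4117 and 4638 CPM, and lowest in subcluster 5, at 488 and 548 CPM, and subcluster 6, at 704 and 1247 CPM. EGF was lowest in subcluster 5 too, at 428 and 407 CPM, but highest in subcluster 6, at 2281 and 2058 CPM. Its counting interval in subcluster 6 overlapped that of subcluster 2 in both libraries, and that of subcluster 4 in the perfused one. SLC12A1 varied by 2.91-fold between the highest and lowest subcluster unperfused and 2.80-fold perfused, with its lowest level, 3203 and 3752 CPM, in subcluster 5. The same span was 8.44-fold and 8.46-fold for UMOD.

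Subcluster 6 joined a low UMOD level with high CLDN10 and EGF levels and carried genes known from the macula densa, the plaque of TAL cells that senses salt beside the glomerulus. NOS1, the neuronal nitric oxide synthase, had 367 and 178 CPM there (37 and 9 UMIs), and PAPPA2, a protease for growth factor binding proteins, had 1984 and 594 CPM (200 and 30 UMIs). PTGS2, the inducible cyclooxygenase of these cells, had 139 CPM from 14 UMIs in unperfused nuclei and no UMI in perfused ones. The macula densa list also held ROBO2 and MCUB. ROBO2 had 1 UMI in unperfused nuclei of subcluster 6 and no UMI in perfused ones. With both libraries summed, ROBO2 was at 6.61 CPM, its lowest level among the subclusters, against 14.2 CPM in subcluster 4, the next lowest. The counting intervals of these levels overlapped. MCUB had 2 UMIs unperfused and 1 UMI perfused in subcluster 6. Only 2 of 5 macula densa markers were raised by the naming rule, so the subcluster was left unnamed. Its perfused part rests on 16 nuclei.

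The UMOD ratio was above 0 in all 8 subclusters, from 0.15 (0.07 to 0.22) in subcluster 1 to 0.82 (0.31 to 1.33) in subcluster 6, and its interval included 0 in subcluster 5 alone, at 0.17 (-0.23 to 0.56). In the largest, subcluster 0, it was 0.17 (0.11 to 0.23). The proportions of the subclusters also differed, with more nuclei of subcluster 0, rich in UMOD, and fewer of subclusters 4, 5 and 6 in the perfused library. With these proportions held fixed, the UMOD ratio in TAL was 0.21 and the SLC12A1 ratio 0.14. The ratios of CASR, at 0.22, and CLDN16, at 0.24, were then no lower than that of UMOD. UMOD thus did not have the largest ratio under this setting. SLC12A1 had ratios between 0.02 and 0.23 in subclusters 0 to 6 and -0.32 (-0.48 to -0.15) in subcluster 7. EGF had a ratio below 0 with an interval without 0 in subcluster 2 alone, at -0.17 (-0.28 to -0.05). CLDN16 had such an interval above 0 in subclusters 0, 2 and 4, the last at 0.30 (0.11 to 0.50).

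**Figure D3:**
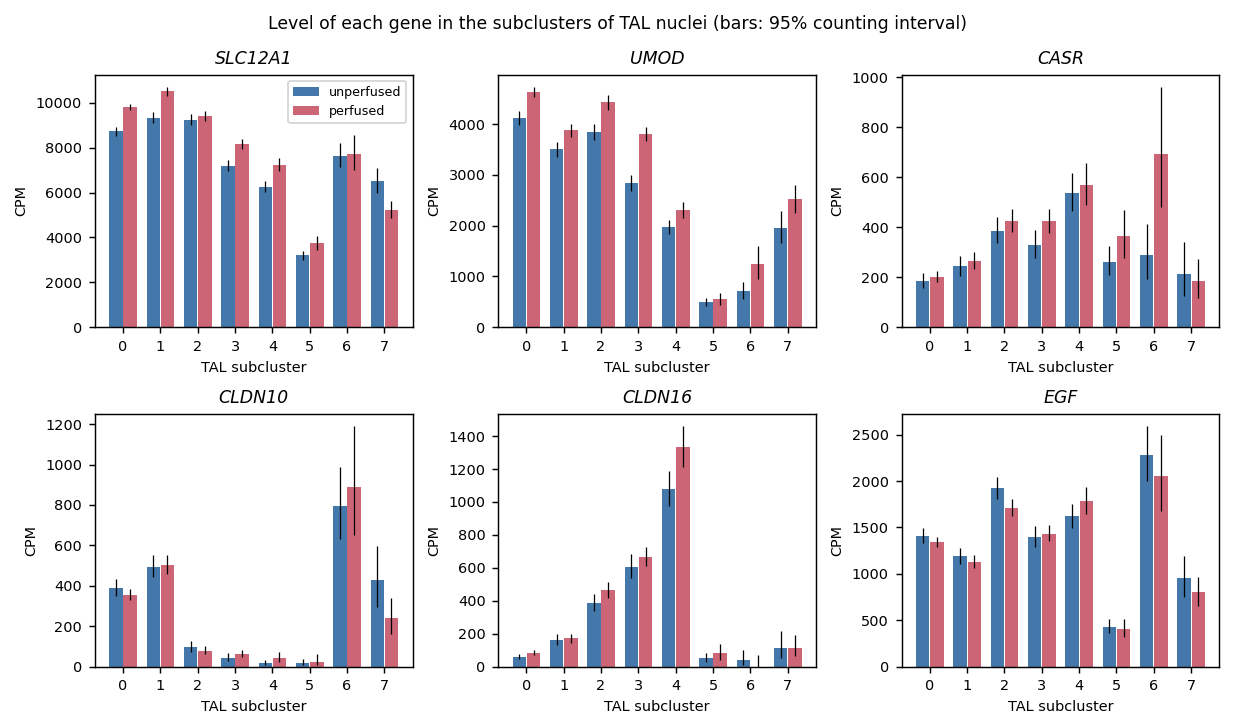
Level of each gene in the 8 subclusters of TAL nuclei, as CPM, unperfused (blue) and perfused (red), with 95% counting intervals. CLDN10 is high in subclusters 0, 1 and 6 and CLDN16 in subclusters 2 to 4, while UMOD is lowest in subclusters 5 and 6.

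In single nuclei both claudins met less often than independence gives, and the ratio came closer to 1 at greater depth. At 1000 UMIs per nucleus, 16 of 742 unperfused TAL nuclei had UMIs of both, where 35.4 would if they were placed independently, a ratio of 0.45 (0.26 to 0.73). In the perfused library 26 of 801 had both against 43.2, a ratio of 0.60 (0.40 to 0.88). Of unperfused nuclei with CLDN10, 9.82% also had CLDN16, against 25.04% of those without CLDN10, and in the perfused library these shares were 14.3% and 26.5%. At 2000 UMIs the ratio was 0.58 (0.42 to 0.77) unperfused and 0.78 (0.63 to 0.96) perfused. As counted, without thinning, 107 of 747 unperfused and 196 of 805 perfused nuclei had both. The ratios were then 0.68 (0.57 to 0.81) and 0.80 (0.71 to 0.91). At 1000 UMIs, CASR went with CLDN16 in 57 perfused nuclei against 40.1 under independence, a ratio of 1.42 (1.09 to 1.82). In the unperfused library it did in 46 nuclei against 38.4, a ratio of 1.20 (0.88 to 1.58). As counted, these ratios were 1.13 (1.02 to 1.23) perfused and 1.19 (1.06 to 1.33) unperfused. At 1000 UMIs, CASR and CLDN10 met in 25 unperfused nuclei against 38.9, a ratio of 0.64 (0.42 to 0.94). In the perfused library they met in 31 nuclei against 38.4, a ratio of 0.81 (0.55 to 1.14). Nuclei of a library are not replicates, and these ratios describe 2 libraries.

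The balance of both claudins was then taken in nuclei with at least 5 UMIs of them, a limit chosen after the subclusters were seen. Of 138 such unperfused nuclei, 71 had at most 10% of these UMIs from CLDN10, 31 had at least 90%, and 36 lay between. Of 239 perfused nuclei, 98, 50 and 91 did. The share between both ends was thus 26.1% unperfused and 38.1% perfused. These nuclei were not thinned, and this share depends on depth. Median depth of TAL nuclei was 4154 UMIs unperfused and 5754 perfused. The part of depth in the difference was not tested.

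The 2 ends differed in some other genes. TMEM207, a gene next to CLDN16 in mammalian genomes, had no UMI in the 31 unperfused and 50 perfused nuclei at the CLDN10 end, and 453 and 404 CPM at the CLDN16 end. KCNJ10, a potassium channel of the basolateral membrane, likewise had no UMI at the CLDN10 end and 135 and 155 CPM at the other. The parathyroid hormone receptor PTH1R had 78.9 and 76.3 CPM at the CLDN10 end and 230.5 and 279.9 CPM at the CLDN16 end. CASR had 270.4 and 199.5 CPM against 469 and 568 CPM, and EGF had 1104 and 1315 CPM against 1756 and 1791 CPM. UMOD went the other way, with 2777 and 4093 CPM at the CLDN10 end against 2403 and 3223 CPM. Its counting intervals overlapped in the unperfused library and not in the perfused one. The potassium channel KCNJ1 had 129.6 CPM at the CLDN10 end against 214.6 CPM unperfused and 135 against 118.7 CPM perfused. Its counting intervals overlapped in both libraries. CLDN19, the claudin partner of CLDN16, had 11.3 against 34.4 CPM unperfused and 11.7 against 18.4 CPM perfused, with counting intervals that overlap in both libraries. The nuclei at both ends had similar depths, with medians of 5090 and 5289 UMIs unperfused and 6988 and 6733 UMIs perfused.

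**Figure D4:**
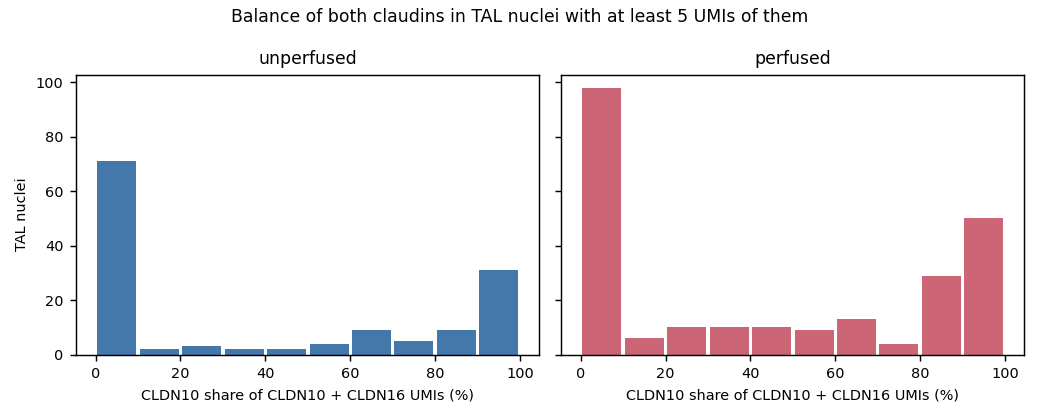
Number of TAL nuclei by the share of CLDN10 in their CLDN10 and CLDN16 UMIs, in steps of 10%, for nuclei with at least 5 such UMIs, unperfused (left) and perfused (right). The counts pile up at both ends, with 71 and 98 nuclei in the lowest step and 31 and 50 in the highest.

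Partner genes of the 6 were taken from lists and compared in TAL where at least 20 UMIs were counted in 1 library or the other. Among all 12281 such genes, 3.52% were past 1.5-fold higher and 12.9% past 1.5-fold lower in the perfused library. Their median log2 ratio was -0.07. The transport partners of NKCC2 had 0 of 9 higher and 1 lower, with a median of 0.04. KCNJ1, the apical potassium channel ROMK that recycles potassium, went from 163 to 108 CPM, a log2 ratio of -0.59 (-0.76 to -0.41). SLC9A3, the sodium-proton exchanger, was at -0.26 (-0.40 to -0.12), and SLC4A2, an anion exchanger, at -0.58 (-0.96 to -0.20). Of the kinases and regulators of NKCC2, 0 of 12 were higher and 2 lower, with a median of -0.01. WNK1, a kinase upstream of the cotransporter, went from 641 to 423 CPM, a ratio of -0.60 (-0.69 to -0.51), and KLHL3, an adaptor for the degradation of WNK kinases, from 109 to 58.1 CPM, a ratio of -0.91 (-1.13 to -0.68). WNK3 was at -0.49 (-0.88 to -0.10).

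Among hormone receptors and their signal proteins, 0 of 7 were higher and 2 lower, with a median of -0.21. The glucagon receptor GCGR went from 107 to 69.4 CPM, a ratio of -0.62 (-0.84 to -0.40), and GNAS, the stimulatory G protein, from 19.3 to 12.1 CPM, a ratio of -0.67 (-1.21 to -0.14). PTGER3, a prostaglandin E2 receptor, was at 0.54 (0.49 to 0.59), from 1491 to 2162 CPM. Of 6 CASR signalling genes none passed 1.5-fold, with a median of 0.14, and the named ones were GNAQ at 0.17 (0.03 to 0.30) and PLCB1, a phospholipase, at 0.06 (0.02 to 0.10).

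Of 11 genes of the tight junction and divalent ion transport, 0 were higher and 1 lower, with a median of -0.03. This was SLC41A3, a magnesium carrier, from 11.5 to 6.46 CPM (38 and 32 UMIs), a ratio of -0.83 (-1.55 to -0.11). Its relative SLC41A1 was at 0.52 (0.19 to 0.86). CLDN19, the partner of claudin-16 in cation pores, singled out after its values were seen, had 27.2 and 20.6 CPM, a ratio of -0.40 (-0.82 to 0.03). Of 9 genes of uromodulin processing and the endoplasmic reticulum, 1 was lower, with a median of -0.21. This was the chaperone HSPA5, from 51.0 to 29.3 CPM, a ratio of -0.80 (-1.13 to -0.47). HPN, the protease hepsin that releases uromodulin, was at 0.26 (0.15 to 0.37), and PGAP1, which remodels the lipid anchor of such proteins, at -0.35 (-0.50 to -0.21).

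The EGF family and its receptors had the only higher gene of these lists, 1 of 7, with a median of 0.10. TGFA, transforming growth factor alpha, went from 134 to 203 CPM, a ratio of 0.60 (0.43 to 0.76), and BTC, betacellulin, another ligand of the EGF receptor, from 63.7 to 91.2 CPM, a ratio of 0.52 (0.28 to 0.76). The receptor ERBB4 was at 0.28 (0.25 to 0.32). With TMM factors, KCNJ1, WNK1, GCGR and GNAS were no longer past 1.5-fold, and PTGER3, BTC and SLC41A1 were past it. So were genes of the CASR signalling list that are not named here.

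Genes whose levels were most like those of the 6 were found by Pearson's r of log2(CPM + 5), over 30 sums of a class and library that share depth and free RNA within a library. For SLC12A1 these were NRK (r = 0.92), CASR (0.87) and IRX1 (0.86), and for CASR they were TMEM207 (0.89), CLDN16 (0.89) and GREB1 (0.88). CLDN16 was most like TMEM207 (0.96), TMPRSS4 (0.90) and CASR (0.89). UMOD was most like LANCL3 (0.88), SLC2A4 (0.87) and ENOX1 (0.86), EGF was most like ACTN2 (0.90), RYR2 (0.85) and PLPPR1 (0.84), and CLDN10 was most like SLC16A12 (0.95), HHLA2 (0.92) and NAF1 (0.92).

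Within the TAL, over 13 sums of a subcluster and library, other genes led. CLDN10 was most like IRX2 (0.98), IRX1 (0.97) and UTRN (0.95), the first pair being homeobox genes of nephron patterning. CLDN16 was most like SPIRE2 (0.94), ATP1B1 (0.91), a subunit of the sodium pump, and CDK8 (0.87), and CASR was most like SHISAL2A (0.85), GNB4 (0.82) and ABHD2 (0.81). UMOD was most like ACSL1 (0.99), IQGAP2 (0.98) and USP24 (0.98), SLC12A1 most like NRCAM (0.97), CDKL1 (0.96) and TGFA (0.96), and EGF was like MTRR (0.93) and MYO9A (0.92).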

How the data were processed

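The authors aligned the reads with Cell Ranger 5.0.1 to an Ensembl pig reference, counting introns, and deposited unnormalized UMI counts per gene and barcode for 1 unperfused and 1 perfused library. Barcodes needed 500 to 6000 genes and no more than 7% mitochondrial UMIs, and Scrublet (scanpy 1.11.5) was used to remove doublets. Ambient RNA was not removed, since the empty droplets that this needs were not used here. Of 31908 genes, 16554 had a symbol in the files and 822 more were filled in by identifier. Counts were integrated in Seurat 5.3.0 (R 4.3.3) on 2000 variable genes without the 6 genes, and clustered on 15 components at a resolution of 0.5. Clusters took the name of the marker list whose mean log2 fold was highest, provided that 3 or more of its markers exceeded 1 with UMIs in at least 10% of nuclei and that markers of no other list outnumbered them among the top 10 genes.

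UMIs were summed per class and library and divided by the class total (CPM). Intervals were Poisson for a CPM, binomial for a share and conditional binomial for a ratio, exact at 95% (scipy 1.17.1). No ratio was given where 1 library had 0 UMIs and the other had 3 or fewer. Any other count of 0 was set to 3. Nuclei were thinned to 1000 UMIs without replacement. The ratio was tested on simulated data. TMM factors came from edgeR 4.0.16 and size factors from DESeq2 1.42.0. Named genes were the 6 genes, markers, genes leading a cluster, and genes picked from the lists and by correlation. From each list these were up to 3 genes with the largest absolute log2 ratio, at least 20 UMIs and an interval without 0. By correlation they were the 3 genes with at least 200 UMIs most correlated with each of the 6. Correlations were taken over all class and library sums, and over TAL subcluster and library sums of at least 20 nuclei. TMEM207, KCNJ10 and PTH1R at the claudin ends were chosen after subclusters were seen. The 6 genes, the lists and the tests were chosen with earlier results of these data known. Some genes that this rule names are not reported here. Sequences and genome positions were not used here.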

Additional observations from a re-analysis of the deposited data

Results flagged for a closer look

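EGF differed in direction between groups of nuclei under the same contrast. Within the TAL, perfused against unperfused gave it a log2 ratio of 0.40 in cluster 15 and -0.11 in cluster 2, with counting intervals on opposite sides of 0. Cluster 15 held 104 unperfused and 71 perfused nuclei, and 8.51% of its perfused EGF UMIs lay in 1 nucleus. Within cluster 15 the EGF ratio was 0.17 (-0.02 to 0.35) in the nuclei of subcluster 4 and -0.08 (-0.53 to 0.36) in those of subcluster 5, which is poor in EGF and fell from 51 to 23 nuclei. In the unnamed cluster 11 the ratio was 0.26 and in PT -0.12. The PT value joins cluster 0, at -0.22 (-0.33 to -0.11), and cluster 3, at -0.01 (-0.09 to 0.06). These differences were not tested, since each condition has 1 library.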

How the results depend on the processing

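Of 319 values recomputed under other settings, 254 stayed within their counting interval or within 1.5 times for counts, 65 moved and 0 reversed with an interval without 0. Resolution 0.3, no integration, no mitochondrial limit and the 6 genes among the variable genes moved none. At resolution 0.3 the TAL class again held 747 and 805 nuclei, so its values had no room to move. Equal weights for nuclei, free RNA subtracted and nuclei of 2000 UMIs or more also moved none. Under these last settings the log2 ratios of the 6 genes alone were recomputed. At resolution 1.0, unperfused SLC12A1 was at 7691 CPM and in 97.6% of thinned TAL nuclei, with a ratio of 0.24. With called doublets kept, TAL made up 10.7% and 13.7% of nuclei, unperfused SLC12A1 was at 7725 CPM, and CLDN16 was in 20.3% of thinned perfused TAL nuclei. With TMM factors the log2 ratios in TAL were 0.35 for SLC12A1, 0.51 for UMOD, 0.21 for CASR and CLDN10, 0.17 for CLDN16 and 0.10 for EGF, and with DESeq2 size factors 0.35, 0.52, 0.22, 0.22, 0.18 and 0.11. Both set the median of all genes at 0.13 and 0.14, and 238 and 249 genes were past 1.5-fold higher. Under either, 0 transport partners, 1 kinase or regulator, 1 hormone receptor, 2 CASR signalling genes, 2 junction and ion genes and 2 genes of the EGF family were past 1.5-fold. With at least 100 UMIs per gene, 1 hormone receptor and 0 junction and ion genes were. With nuclei carrying another lineage's marker left out (365 and 397 remained), CASR was at 0.26 and CLDN16 at -0.086. Over genes with at least 20 UMIs, 432 were past 1.5-fold higher and 1589 lower, and over those with at least 1 UMI in each library, 1352 and 4127. Thinned to 2000 UMIs, shares of TAL nuclei unperfused were 93.0% for UMOD, 39.0% for CASR, 32.9% for CLDN10, 31.8% for CLDN16 and 85.9% for EGF, and perfused 100% for SLC12A1, 97.5%, 40.6%, 37.9%, 35.5% and 80.5%.

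The following were chosen after seeing the data. With subcluster proportions held fixed, the ratio was 0.14 for SLC12A1, 0.21 for UMOD, 0.22 for CASR and 0.24 for CLDN16. In cluster 2 alone it was 0.17 for SLC12A1, 0.28 for UMOD and -0.11 for EGF. In cluster 15 alone it was 0.19 for SLC12A1, 0.70 for UMOD, 0.23 for CASR, 0.72 for CLDN10 (9 and 14 UMIs), 0.55 for CLDN16 and 0.40 for EGF. Without subclusters 3 and 7 no ratio moved. The cause was not tested. No paired analysis was possible because each condition has 1 library and no test was made. Leaving out a replicate was not possible either. Depth limits CASR, CLDN10 and CLDN16, which had a UMI in at most 62.5% of TAL nuclei as counted.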

Other observations

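Outside the TAL, several levels of the 6 genes rested on few nuclei. In type A intercalated (IC-A) nuclei, which secrete acid in the collecting duct, SLC12A1 had 118 UMIs unperfused and 360 perfused, a log2 ratio of 2.18 (1.88 to 2.50). In the perfused library, 311 of the 360 UMIs (86.4%) lay in the 5 richest of 134 nuclei, and 1 nucleus had 118. In the unperfused library, the 5 richest of 299 nuclei had 17 of 118 UMIs (14.4%). CLDN16 and EGF followed in perfused IC-A nuclei, with 95% of 20 UMIs and 76.7% of the EGF UMIs in the 5 richest nuclei for each gene. In cluster 11 the libraries were the other way round, with 79.4% of 204 SLC12A1 UMIs in the 5 richest of 73 unperfused nuclei and 29.5% of 146 in the 5 richest of 177 perfused nuclei.

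UMOD in perfused immune nuclei was spread more widely, and the part of free RNA in it was not tested. The 5 richest of 856 nuclei had 6.58% of its 1641 UMIs, and 551 nuclei had at least 1. Immune nuclei made up 4.60% of unperfused and 15.8% of perfused nuclei. CLDN10 in cluster 11 was likewise spread over nuclei, with a median of 10 UMIs per unperfused and 13 per perfused nucleus, and that cluster made up 1.14% and 3.27% of nuclei. In unperfused nuclei of cluster 17, 84.1% of 69 CLDN10 UMIs lay in the 5 richest of 58 nuclei, and in perfused ones 33.8% of 198 in the 5 richest of 88.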
